A study of Mus musculus with 7 samples.

Results

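The 10 genes described here encode the transcription factors that are usually counted as the core of the cardiac gene programme: the zinc finger proteins Gata4 and Gata6, the homeodomain protein Nkx2-5, the T-box proteins Tbx5 and Tbx20, the basic helix-loop-helix protein Hand2, and the MADS-box proteins Mef2a, Mef2c, Mef2d and Srf. Every probe whose RefSeq transcript belongs to one of these genes was taken, whatever its signal. This gave 16 of the 55681 probes of the array, for 10 of its 21154 named genes. All 16 were well above background on all 7 arrays, so all were tested, among 26576 probes that passed the same filter on low signal. Gata4, Gata6, Nkx2-5, Tbx5, Hand2 and Mef2c had 1 probe each, and Tbx20, Mef2a, Mef2d and Srf had several.

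RNA came from the apex of hearts of male C57BL/6 mice, in which both alleles of Mapk14, the gene of the stress kinase p38α, carried loxP sites around exons 2 and 3. The 3 knockout (KO) mice were in addition heterozygous for MerCreMer, a hydroxytamoxifen-activated Cre recombinase that the α-MHC promoter drives in cardiomyocytes, and the 4 control mice had no Cre. All mice received hydroxytamoxifen, 500 µg per day for 10 days starting at 6 weeks of age, and all were given angiotensin II by osmotic minipump at 1.5 mg/kg per day for 48 hours, with hearts taken at 3 months. The comparison asks what loss of p38α in cardiomyocytes does to gene expression in the angiotensin II-treated heart. Because only KO mice carried Cre, the deletion and the presence of Cre cannot be told apart, and because no untreated hearts enter the comparison, an effect of angiotensin II itself was not measured.

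These factors bind short DNA elements in promoters and enhancers of sarcomere, ion handling and natriuretic peptide genes, and they do so in combination: GATA4, NKX2-5 and TBX5 contact one another on shared target genes, HAND2 joins GATA4, and SRF works with the coactivators of the myocardin family. They build the heart in the embryo and remain expressed in adult cardiomyocytes, where GATA4, the MEF2 proteins and SRF are known for their part in hypertrophic growth. MEF2 proteins are held in check by class II histone deacetylases and are known substrates of p38 kinases, and SRF carries the response of immediate early and actin cytoskeleton genes to growth signals. Gata4, Gata6, Hand2, the Mef2 genes and Srf are also expressed in fibroblasts, endothelium or smooth muscle, so in RNA of a whole apex their level does not belong to cardiomyocytes alone.

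DNA elements read by the MADS-box factors occur in the promoters of a few members themselves. They are shown here because Srf and Mef2a are the only members searched whose window held the long element of their own protein family. The stretches are 100 bases long, from RefSeq promoter windows of mouse build GRCm38.p6, both on the minus strand and written 5′ to 3′. Capitals in the Srf stretch (chr17:46556193-46556292) mark its 2 CArG boxes, the element bound by SRF, and capitals in the Mef2a stretch (chr7:67372849-67372948) mark its 1 MEF2 box, the element bound by MEF2 proteins.
Srf: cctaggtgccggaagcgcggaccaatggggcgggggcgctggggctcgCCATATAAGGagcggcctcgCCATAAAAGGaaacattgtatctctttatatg
Mef2a: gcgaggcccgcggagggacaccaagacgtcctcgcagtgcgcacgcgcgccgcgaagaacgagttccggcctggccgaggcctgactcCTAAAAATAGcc
The Srf stretch begins 130 bases before the annotated transcript start and the Mef2a stretch 90 bases before it. A search of both strands found a CArG box in 1.63% and a MEF2 box in 3.19% of 32851 promoter windows of 300 bases, and no CArG box overlapped a MEF2 box in the member windows. The search covered 9 windows of 7 member genes, since a gene can have several annotated starts. Gata4, Gata6 and Tbx5 were not searched. Of these 9 windows, 1 held a CArG box (Srf) and 1 a MEF2 box (Mef2a). The short core element GATA was found in 6 of the 9 windows, from Hand2, Mef2c, Nkx2-5 and Srf, beside 57.9% of all windows. The NK2 core AAGTG was found in 5 of the 9, beside 46.4% of all windows, and the T-box core AGGTGT in 1 of the 9 (Mef2c), beside 13.7%. These are matches of letters in a short window and not measured binding sites.

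All 7 arrays lay on 1 slide, with the controls in slide columns 1 and 3 and the KO hearts in columns 2 and 4, so that slide column and group cannot be told apart. On each array between 46.0% and 49.7% of the probes were well above background. With 4 against 3 arrays, the number of arrays bounds how precise each value below can be. The limma p-values set each group difference against the spread between these hearts, which limma partly pools over all tested probes. The cardiomyocyte genes Myh6, Tnnt2 and Myl2 were well above background on all 7 arrays, and the atrial gene Myl7 on 0 of them. The brighter Mapk14 probe was not lower in KO hearts (difference 0.22 ± 0.12 on the log2 scale, limma adjusted p = 0.202). Where it lies relative to the deleted exons is not given in the sources used here, so it does not check the deletion. A probe for Esr1, the oestrogen receptor gene from which the Mer domains derive, was well above background in 3 of 3 KO and 0 of 4 control hearts, the groups that the labels give as with and without MerCreMer. Its level was -0.82 and 0.07 in KO hearts 1 and 2 and 4.499 in KO heart 3, which thus stood apart in this probe, and 2 other Esr1 probes were well above background on 0 arrays. The array-wide median difference was -0.05.

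Values are log2 processed signals relative to the 75th percentile of the same array, and a difference is KO minus control with its standard error (SE) from limma, 4 controls against 3 KO hearts. A probe was called when its limma p, adjusted by Benjamini-Hochberg over all 26576 probes, was under 0.05. Exact permutation p-values are two-sided over the 35 ways to split 7 hearts into 4 and 3, for which the smallest possible p is 0.0286. Of the 16 member probes 4 were called, which is 25%, and 25.5% of all tested probes were called in either direction. The calls fell on 3 genes: the main probes of Tbx20 and Mef2a and the only Mef2c probe were lower in KO hearts, and another Mef2a probe was higher. Lower calls numbered 3 of 16 (15.1% of all probes) and higher calls 1 of 16 (10.4% of all probes). In 7 of the 16 probes the values of the groups did not overlap, or 43.8%, beside 39.2% of all probes. The members as a set were thus called about as often as any probe on the array.

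The calls rest on few hearts. Without KO heart 1 no member probe was called by limma, although 4 had an unadjusted p under 0.05, and over the whole array the count of called probes was 54 in place of 6767. Without KO heart 2 only 1 member probe was called, the higher Mef2a probe, and 1251 probes over the array. Leaving out control hearts 1, 3 or 4 gave 3 member calls each (3998, 3206 and 2690 probes over the array), and without control heart 2 or KO heart 3 there were 5. Without KO heart 3 these were the 4 probes called with all hearts and that of Hand2.

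**Figure D1:**
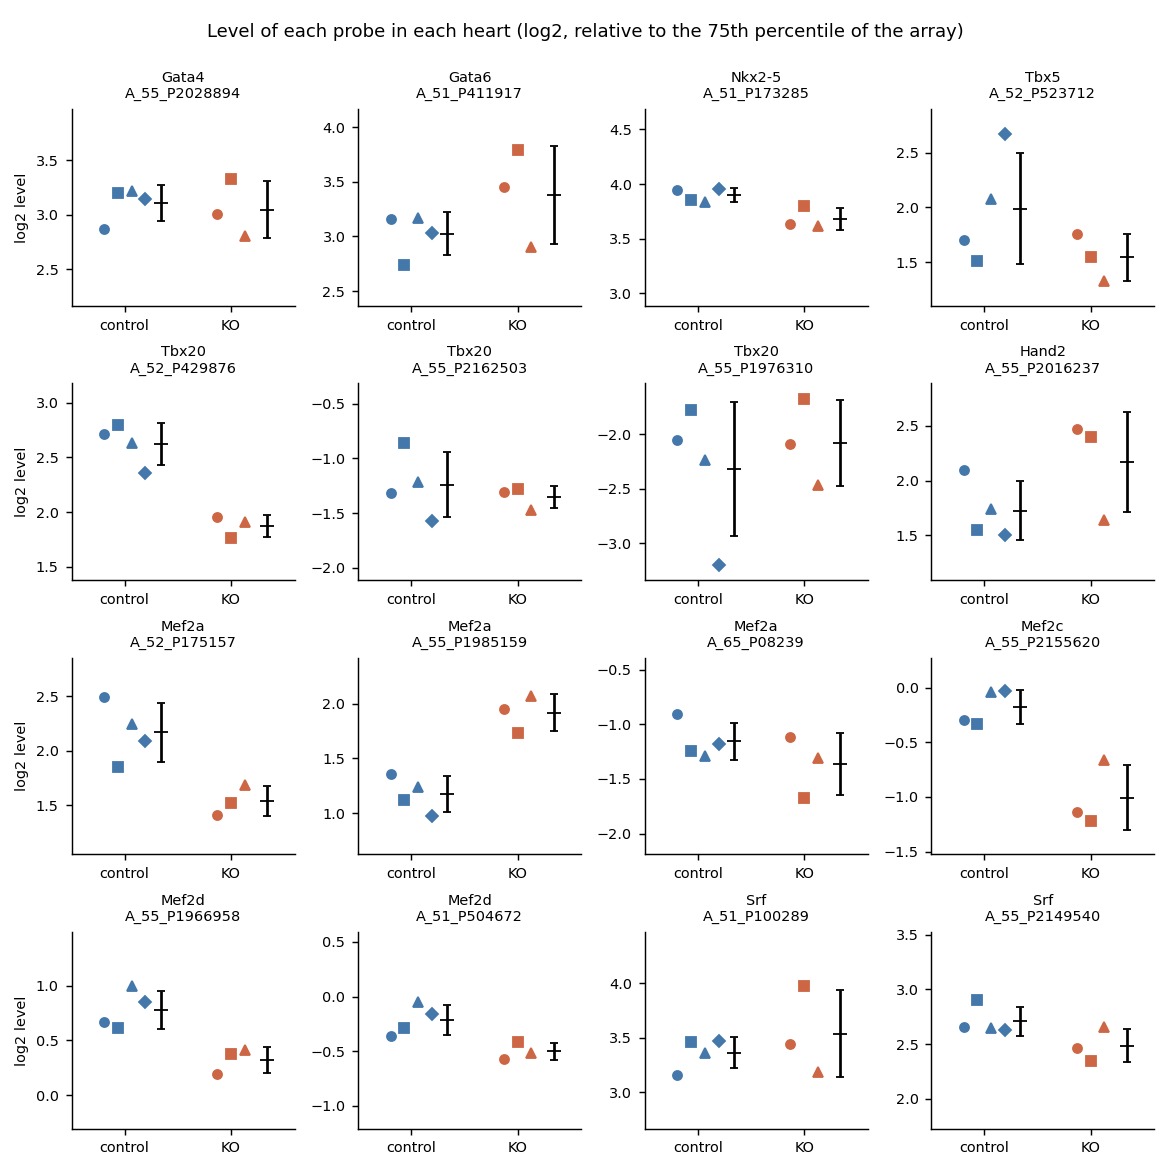
Log2 processed signal relative to the array's 75th percentile (vertical axis) of each probe of the 10 genes in every heart, with control hearts in blue, KO hearts in red, a marker shape per replicate number, and the group mean with its SD as bars. The KO hearts lie below all controls for the main probes of Tbx20 (1.76 to 1.95 against 2.36 to 2.80) and Mef2a and for Mef2c, and above all controls for the second Mef2a probe (1.73 to 2.07 against 0.97 to 1.36).

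The GATA factors were not called in either direction. Gata4, which drives sarcomere and natriuretic peptide genes and is needed for compensatory hypertrophy, measured 2.87, 3.20, 3.22 and 3.14 in control hearts 1 to 4 and 3.00, 3.32 and 2.81 in KO hearts 1 to 3. The groups overlapped, with KO heart 2 the highest and KO heart 3 the lowest of the 7. Its difference was -0.06 ± 0.17 (limma adjusted p = 0.795), and the 95% interval of -0.45 to 0.32 leaves room for a change of either sign; with arrays centred on their median the difference was 0.03. Gata6, a close relative of Gata4 with overlapping roles in the myocardium and the vessel wall, measured 3.16, 2.74, 3.16 and 3.03 in controls and 3.45, 3.79 and 2.90 in KO hearts. KO hearts 1 and 2 exceeded every control and KO heart 3 did not. The control mean of 3.02 ± 0.20 (SD, n = 4) and the KO mean of 3.38 ± 0.45 (SD, n = 3) gave a difference of 0.36 ± 0.22 (limma adjusted p = 0.255; 95% interval -0.16 to 0.87).

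Nkx2-5, the homeodomain factor of early heart specification that adults keep in cardiomyocytes and the conduction system, had the smallest spread between controls of all 16 probes. It read 3.94, 3.85, 3.84 and 3.96 in controls and 3.63, 3.80 and 3.61 in KO hearts, so each KO heart lay under each control, KO heart 2 only narrowly. The mean was 3.90 ± 0.06 (SD, n = 4) against 3.68 ± 0.10 (SD, n = 3). The exact permutation p of 0.0286 was the smallest the design can give, yet the small difference of -0.22 ± 0.12 was not called (limma adjusted p = 0.200; 95% interval -0.50 to 0.06).

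Among the T-box genes, the highest-signal Tbx20 probe was lower in KO hearts, the other Tbx20 probes were not called, and Tbx5 was too variable to call. Tbx20, which maintains contractile and ion transport genes in adult cardiomyocytes, has 3 probes, each tied to a different RefSeq transcript. The probe with the highest signal (A_52_P429876, NM_194263) measured 2.71, 2.80, 2.63 and 2.36 in controls and 1.95, 1.76 and 1.91 in KO hearts. The highest KO heart lay well below the lowest control. Means were 2.62 ± 0.19 (SD, n = 4) and 1.87 ± 0.10 (SD, n = 3). By this probe Tbx20 was 1.68-fold lower in KO hearts (difference -0.75 ± 0.15, limma adjusted p = 0.0159, exact permutation p = 0.0286). Leaving out 1 heart moved the difference only between -0.84 and -0.69, but the adjusted p rose to 0.0735 without KO heart 1 and to 0.0550 without KO heart 2.

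The other Tbx20 probes did not show this drop, and both were much dimmer. Processed signals were 1432 to 3271 for the high-signal probe. They were 131 to 260 for the NM_001205085 probe and 43 to 137 for the NM_020496 probe. The probe tied to NM_001205085 measured -1.32, -0.86, -1.21 and -1.57 in controls and -1.31, -1.28 and -1.47 in KO hearts, with all KO hearts inside the control range. Its difference was -0.11 ± 0.18 (limma adjusted p = 0.652; 95% interval -0.53 to 0.30), and 0.01 without control heart 2. The probe tied to NM_020496 measured -2.05, -1.78, -2.24 and -3.19 in controls and -2.09, -1.68 and -2.47 in KO hearts. Control heart 4 was the lowest of the 7, and the difference of 0.24 ± 0.34 (limma adjusted p = 0.620; 95% interval -0.55 to 1.03) became -0.05 without it. Relative to the high-signal probe of the same heart, the NM_001205085 probe stood 0.64 ± 0.12 higher in KO than in control hearts on the log2 scale. That ratio was -4.03, -3.65, -3.84 and -3.93 in controls and -3.26, -3.04 and -3.38 in KO hearts, which do not overlap (exact permutation p = 0.0286), and it was not called among all probe ratios (limma adjusted p = 0.0670). For the NM_020496 probe the ratio change was 0.99 ± 0.29 (limma adjusted p = 0.125, exact permutation p = 0.0286). Both ratio changes passed with normexp background correction (0.63 with adjusted p = 0.0205, and 0.77 with adjusted p = 0.0372). Neither passed in the authors' value table (limma adjusted p = 0.0576 and 0.114) or with the replicate number as a block (0.170 and 0.193). Control heart 4, the only replicate 4, does not enter the difference under that block. With 1 heart left out, only the NM_001205085 ratio without KO heart 3 passed (limma adjusted p = 0.0440).

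Tbx5, a partner of NKX2-5 and GATA4 in atrial and conduction gene control, measured 1.70, 1.51, 2.08 and 2.67 in controls and 1.76, 1.55 and 1.33 in KO hearts. Control heart 4 was far above the rest, and KO hearts 1 and 2 lay among the controls. The mean was 1.99 ± 0.51 (SD, n = 4) against 1.54 ± 0.21 (SD, n = 3), with a difference of -0.44 ± 0.28 that was not called (limma adjusted p = 0.249; 95% interval -1.08 to 0.19). Without control heart 4 the difference was -0.22.

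Hand2, the helix-loop-helix partner of GATA4 that builds the right ventricle and is also expressed in cardiac fibroblasts and neurons, measured 2.10, 1.55, 1.74 and 1.50 in controls and 2.47, 2.40 and 1.64 in KO hearts. KO hearts 1 and 2 were above every control, while KO heart 3 lay within their range. Means of 1.72 ± 0.27 (SD, n = 4) and 2.17 ± 0.46 (SD, n = 3) differed by 0.45 ± 0.24 (limma adjusted p = 0.194; 95% interval -0.11 to 1.01). Without KO heart 3 the difference was 0.71 and Hand2 was called (limma adjusted p = 0.0409). In Gata6, too, KO heart 3 was the one KO heart that did not exceed the controls.

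**Figure D2:**
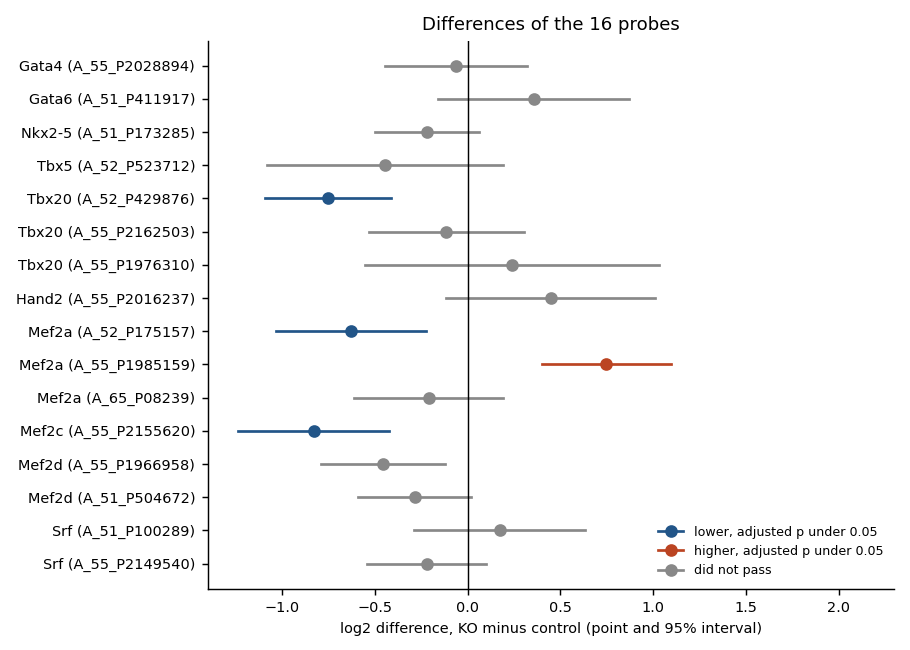
Difference KO minus control on the log2 scale (horizontal axis) of each member probe, with its 95% interval from limma; colours mark probes called at an adjusted p under 0.05. The 3 lower calls lie at -0.75 (Tbx20), -0.63 (Mef2a) and -0.83 (Mef2c) and the 1 higher call at 0.75 (Mef2a), while the intervals of Gata4, Gata6, Nkx2-5, Tbx5, Hand2 and both Srf probes include 0.

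The MEF2 genes, with 3 probes for Mef2a, 2 for Mef2d and 1 for Mef2c, held 3 of the 4 calls. The Mef2a calls went in opposite directions, and 25.5% of all tested probes were called. Mef2c, needed for heart looping in the embryo and expressed in adult cardiomyocytes and endothelium, measured -0.29, -0.33, -0.04 and -0.03 in controls and -1.14, -1.22 and -0.66 in KO hearts. Every KO heart was below every control, KO heart 3 the least so. Means were -0.18 ± 0.16 (SD, n = 4) and -1.01 ± 0.30 (SD, n = 3), so that Mef2c was 1.78-fold lower in KO hearts (difference -0.83 ± 0.18, limma adjusted p = 0.0183, exact permutation p = 0.0286). This was the largest difference among the 16 probes. It comes from the only Mef2c probe, whose processed signals were low, at 182 to 381. Over the hearts left out in turn the difference ran from -1.002 to -0.72, and the call was lost without KO heart 1 (adjusted p = 0.0886) and without KO heart 2 (adjusted p = 0.0602).

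Mef2d, the MEF2 gene tied to pathological growth of the adult heart, has 2 probes on the array, and both lay lower in every KO heart without passing the test. The probe with the higher signal measured 0.67, 0.61, 0.99 and 0.85 in controls and 0.19, 0.37 and 0.41 in KO hearts. Its difference was -0.46 ± 0.15 (limma adjusted p = 0.0521, exact permutation p = 0.0286), just above the threshold, and it was called under other settings, among them quantile normalization (-0.47, adjusted p = 0.0432) and the authors' value table (-0.47, adjusted p = 0.0440). The other probe measured -0.36, -0.28, -0.05 and -0.16 in controls and -0.57, -0.41 and -0.51 in KO hearts, a difference of -0.29 ± 0.13 (limma adjusted p = 0.134). The ratio of the Mef2d probes differed by 0.17 ± 0.08 between groups (limma adjusted p = 0.280).

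Mef2a, a MEF2 form of adult heart muscle and a regulator of mitochondrial and costamere genes, gave calls in both directions. Its 3 probes are tied to the same RefSeq transcript, NM_001291196. The probe with the highest signal (A_52_P175157) measured 2.49, 1.85, 2.25 and 2.09 in controls and 1.42, 1.52 and 1.69 in KO hearts. All KO hearts were below all controls, and the gap between control heart 2 and KO heart 3 was small. Means of 2.17 ± 0.27 (SD, n = 4) and 1.54 ± 0.14 (SD, n = 3) gave a difference of -0.63 ± 0.18 (limma adjusted p = 0.0362, exact permutation p = 0.0571). This call was the least firm of the set: it was lost without control heart 1, 3 or 4 and without KO heart 1 or 2, with adjusted p reaching 0.141 and differences between -0.73 and -0.52, and with arrays centred on their median (-0.54, adjusted p = 0.0585).

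The second Mef2a probe (A_55_P1985159) measured 1.36, 1.12, 1.24 and 0.97 in controls and 1.95, 1.73 and 2.07 in KO hearts, so here all KO hearts were above all controls. Means of 1.17 ± 0.16 (SD, n = 4) and 1.92 ± 0.17 (SD, n = 3) gave a 1.68-fold higher value in KO hearts (difference 0.75 ± 0.15, limma adjusted p = 0.0164, exact permutation p = 0.0286). Leaving out 1 heart gave differences from 0.67 to 0.84, and the call was lost without KO heart 1 (adjusted p = 0.0814). The third probe (A_65_P08239) measured -0.91, -1.24, -1.29 and -1.18 in controls and -1.12, -1.67 and -1.31 in KO hearts, which overlap (difference -0.21 ± 0.17, limma adjusted p = 0.381). The mean over the 3 probes differed by -0.03 (limma adjusted p = 0.884), so a gene-level average of Mef2a showed neither movement.

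The opposite movement of the first 2 Mef2a probes was visible before any scaling. The processed signal of the first was 2229, 1699, 1626 and 1660 in controls and 1152, 1214 and 1280 in KO hearts, and that of the second was 1017, 1024, 807 and 765 in controls and 1670, 1407 and 1670 in KO hearts. A ratio of 2 probes on the same array is free of the array's scaling. On the log2 scale, the second probe over the first stood at -1.13, -0.73, -1.01 and -1.12 in controls and at 0.54, 0.21 and 0.38 in KO hearts. The lowest KO heart lay well above the highest control. The zero of such a ratio depends on how strongly each probe binds, so only the shift between groups can be read. Group means of -0.998 ± 0.186 (SD, n = 4) and 0.377 ± 0.161 (SD, n = 3) differed by 1.38 ± 0.13, a 2.59-fold change (limma adjusted p = 0.0196 over 4232 probe pairs, exact permutation p = 0.0286).

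Among those 4232 pairs of a probe with the highest-signal probe of its gene, 34 were called, or 0.803%, and the Mef2a pair ranked 3rd by p and 76th by size; the median absolute change was 0.17. The ratio change was 1.28 with normexp background correction (adjusted p = 0.0123) and 1.37 in the authors' value table (adjusted p = 0.0202). With the replicate number as a block in limma it was 1.34 and was not called (adjusted p = 0.170). Only the controls have a replicate 4, so control heart 4 does not enter that difference. Under the same block 0 of 26576 probes were called over the array. With 1 heart left out the ratio change stayed between 1.30 and 1.46. Its adjusted p was under 0.05 only without control heart 2 (0.0294) or KO heart 3 (0.0174), and reached 0.0980 otherwise. Of 3535 genes with several tested probes, 13 had probes called in opposite directions (0.368%), and of the 575 with 3 or more probes, 7 did (1.22%). This ratio test was added after the probes' values were seen. Which exons the probes cover is not given in the sources used here, so the difference cannot be assigned to a splice form.

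**Figure D3:**
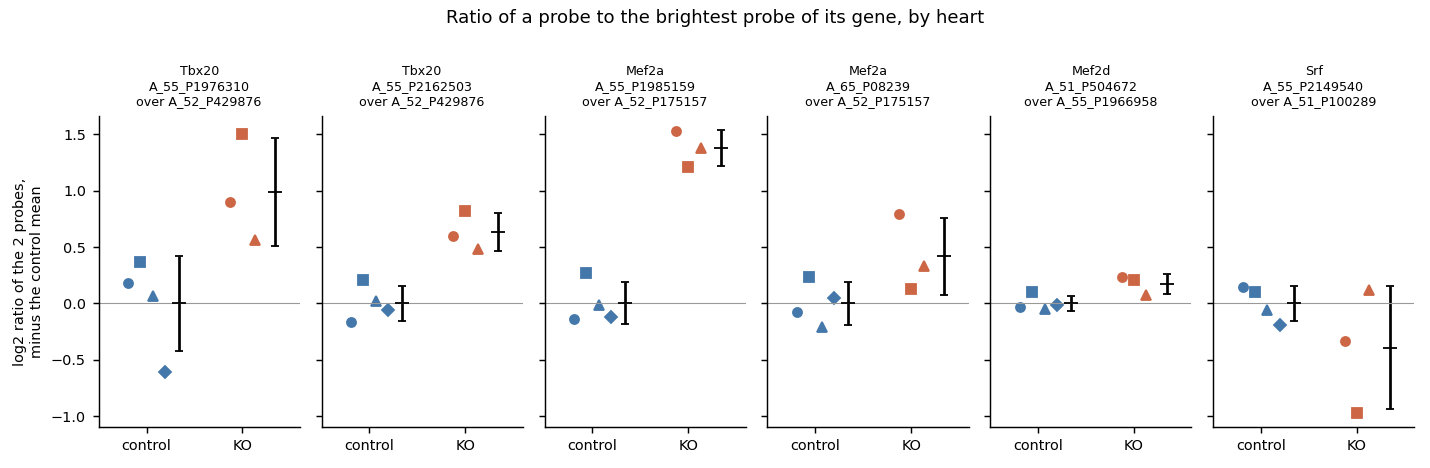
Log2 ratio of each further probe of Tbx20, Mef2a, Mef2d and Srf to the highest-signal probe of the same gene, minus the mean ratio of the controls (vertical axis), in every heart, with controls in blue, KO hearts in red and group means with SD as bars. The KO hearts stand above all controls for the second Mef2a probe (mean shift 1.38) and for both Tbx20 probes (0.99 and 0.64), while the Srf hearts overlap.

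Srf, the MADS-box factor of sarcomere, actin and immediate early genes, has 2 probes, and neither was called. The probe with the higher signal measured 3.16, 3.46, 3.36 and 3.47 in controls and 3.45, 3.97 and 3.19 in KO hearts. KO heart 2 was the highest of the 7 and the other KO hearts lay within the control range (difference 0.17 ± 0.20, limma adjusted p = 0.530; 95% interval -0.29 to 0.63). Without KO heart 2 the difference was -0.04. The other probe measured 2.66, 2.90, 2.65 and 2.63 in controls and 2.46, 2.35 and 2.65 in KO hearts, with KO heart 3 inside the control range (difference -0.22 ± 0.14, limma adjusted p = 0.255, exact permutation p = 0.0857). The ratio of the Srf probes differed by -0.39 ± 0.24 (limma adjusted p = 0.402).

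**Figure D4:**
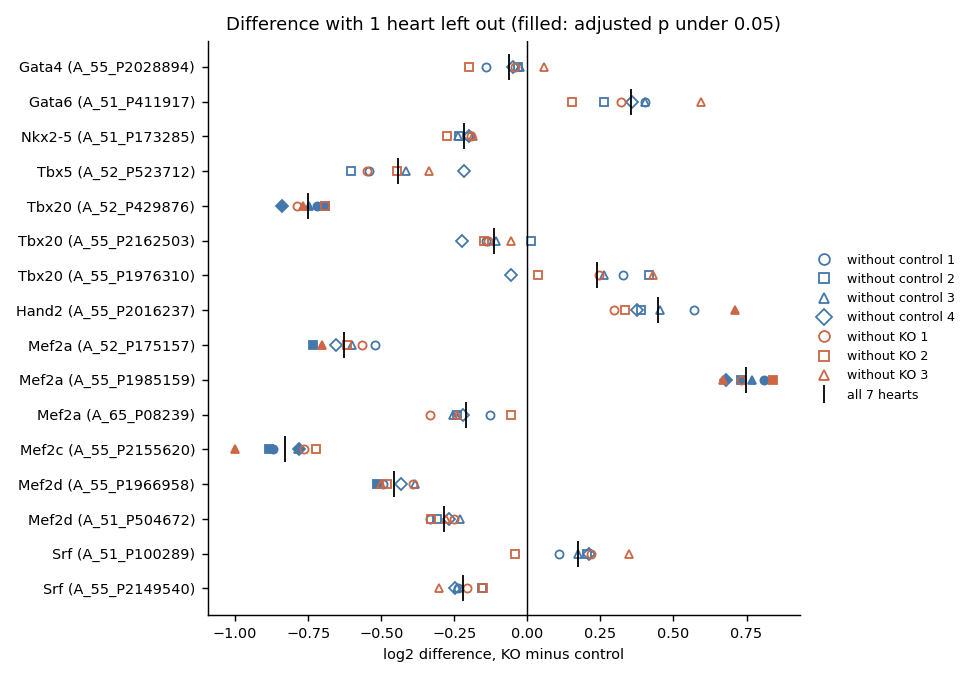
Difference KO minus control on the log2 scale (horizontal axis) of each member probe with all 7 hearts (vertical bar) and with each heart left out in turn (markers, filled where the adjusted p is under 0.05). The differences of the highest-signal Tbx20 probe (-0.84 to -0.69) and Mef2c (-1.002 to -0.72) keep their sign in every subset. So do those of the first 2 Mef2a probes (-0.73 to -0.52 and 0.67 to 0.84). The differences of Gata4, the other Tbx20 probes and the higher-signal Srf probe cross 0.

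The members were measured in whole tissue, in which fewer cells of a type and less RNA per cell cannot be told apart. Over all 13697 named genes, 28.5% were called (16.1% lower, 12.4% higher), and the list counts that follow are to be read against these shares. Of 8 cardiomyocyte markers, each by its brightest probe, 5 were lower, 0 higher and 3 not called, Myh6 among the last. Their summed signal on the log2 scale was 11.6 to 12.1 in controls and 11.3 to 11.5 in KO hearts, and none of the 8 was at background. The mean of the 8 markers was 8.16, 7.87, 8.41 and 8.29 in controls and 7.10, 7.39 and 7.48 in KO hearts, without overlap. Its difference was -0.86, with Pln alone at -2.34, and the median of the 8 differences was -0.78. The largest member difference in size was -0.83 (Mef2c). The part of cardiomyocyte content in the lower calls was not tested.

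Markers of other cell types were called in part. Of 7 fibroblast markers 1 was higher and 1 lower (summed signal 8.31 to 8.90 in controls, 7.93 to 9.07 in KO hearts), of 6 endothelial markers 1 was lower (5.25 to 5.94 against 5.12 to 5.38), and of 6 smooth muscle and pericyte markers 1 was lower (5.95 to 6.83 against 6.64 to 6.83). None of 5 macrophage markers was called by limma by its brightest probe, although 3 had an unadjusted p under 0.05 (6.57 to 6.67 against 6.43 to 6.88). The Itgam probes disagreed. Its brightest probe differed by -0.56 (limma adjusted p = 0.0911) and a lower-signal probe by -0.96 (adjusted p = 0.0690). Another lower-signal Itgam probe was called higher (1.86, limma adjusted p = 0.0123). The calls among fibroblast, endothelial and smooth muscle markers are close to or below the share over all named genes. Of the neutrophil markers well above background on all 7 arrays, 2 were higher (S100a8 and S100a9). Cxcr2 was not well above background in any control and was tested only through the KO hearts, so it is not counted. The mean level of the 4 measured markers, Cxcr2 included and centred per gene, was -1.29 to -0.56 in controls. It was 1.94, 2.36 and -0.07 in KO hearts 1, 2 and 3, of which KO heart 3 was the lowest. The summed signal of the 4 (6.83 to 7.46 against 6.65 to 7.46) followed Csf3r, the brightest, which was not called. Of 3 erythroid markers 3 were lower (8.43 to 8.97 against 7.77 to 8.41). The liver markers passed the filter only through the controls: Alb was well above background in 4 of 4 controls and 0 of 3 KO hearts and Ttr in 4 of 4 and 2 of 3, and Apoa1 on 0 arrays, so no count is read from them. The part of these cells in the members' values was not tested.

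Close relatives of the members gave no call. Of 12 further genes of the GATA, T-box, NK2, HAND, ISL and MEF2 families, 7 were measured and 0 were called by limma, with 1 at an unadjusted p under 0.05 and a median difference of -0.12. The one at an unadjusted p under 0.05 was Gata3, known best from T lymphocytes (limma adjusted p = 0.0808). It was well above background in 4 of 4 controls but 1 of 3 KO hearts, so its difference is not given, and among relatives well above background on all 7 arrays 0 had an unadjusted p under 0.05. Gata5 differed by -0.12, the conduction system repressor Tbx3 by -0.22 and the epicardial and pericyte factor Tbx18 by 0.48. Of the other 5, Gata1, Hand1, Isl1 and Mef2b reached no array's criterion for signal well above background, and Nkx2-6 did so on 1 control and 1 KO array.

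Cofactors and repressors of the members moved in both directions, 8 of 47 lower, 3 higher and 36 not called, with a median of -0.02, as over all named genes (-0.02). The higher calls were the homeodomain cofactor Meis1 (0.72, limma adjusted p = 0.0200), the Krüppel-like factor Klf13 (0.52, adjusted p = 0.0330) and the class I deacetylase Hdac1 (0.54, adjusted p = 0.0344). Among the lower calls were proteins known to act on these factors. Hopx, a homeodomain-only protein that restrains SRF, differed by -1.66 ± 0.26 (limma adjusted p = 0.0124). Fhl2, a LIM protein that binds SRF, differed by -1.30 ± 0.18 (limma adjusted p = 0.0121). Prox1, a homeodomain factor of sarcomere assembly, differed by -1.43 ± 0.24 (limma adjusted p = 0.0127). Smyd1, a muscle histone methyltransferase and known MEF2 target, differed by -1.09 ± 0.19 (limma adjusted p = 0.0134). Smarcd3 (BAF60c), the chromatin remodelling subunit that lets GATA4 and TBX5 bind their targets, differed by -0.75 ± 0.13 (limma adjusted p = 0.0128). Among relatives of called genes, the class II deacetylase Hdac9 fell (-0.85, limma adjusted p = 0.0203) while Hdac5 (-0.48, adjusted p = 0.0586) and Hdac4 (-0.12) were not called, and the GATA cofactor Zfpm1 fell (-0.54) while Zfpm2 (-0.12) was not called. Myocardin (Myocd), the cardiac coactivator of SRF, differed by -0.02 and was not called.

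Known targets of the factors were read from 3 lists, which share Actc1 (GATA4, NKX2-5 and TBX5 with SRF) and Des (MEF2 with SRF). Targets that also stand among the cofactors include Hopx, Smyd1, Hdac9, Fhl2 and Myocd. The list of GATA4, NKX2-5 and TBX5 targets holds the member Hand2. It also holds the cardiomyocyte markers Tnni3, Pln, Ryr2, Tnnt2, Myh6 and Myl2. The lower calls of Tnni3, Pln and Ryr2 are thus counted in both lists. Of 30 measured targets of GATA4, NKX2-5 and TBX5, 8 were lower, 3 higher and 19 not called, with a median of -0.15. Both shares are to be set beside 16.1% lower and 12.4% higher over all named genes. Lower were the calcium pump regulator Pln (-2.34 ± 0.39, limma adjusted p = 0.0127), the calcium pump Atp2a2 (-1.58 ± 0.31, adjusted p = 0.0156), the troponins Tnni3 (-1.19 ± 0.20, adjusted p = 0.0127) and Tnnc1 (-0.57 ± 0.13, adjusted p = 0.0215), and Hopx. The higher calls were Id2 (1.08), an inhibitor of helix-loop-helix proteins, the survival gene Bcl2l1 (0.94) and the cell cycle kinase gene Cdk4 (0.58). The natriuretic peptide genes Nppa (0.55, limma adjusted p = 0.161) and Nppb (0.85, adjusted p = 0.0723) did not pass. The α-myosin gene Myh6 did not pass by its brightest probe (-0.30), the one used for the lists. A lower-signal Myh6 probe was called lower (-1.72, limma adjusted p = 0.0118).

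MEF2 targets were the list with the most lower calls. Of 33 measured, 17 were lower, 5 higher and 11 not called, with a median of -0.71. The lower genes included the glucose transporter Slc2a4 (-2.71 ± 0.42, limma adjusted p = 0.0123), the Z-disc protein Tcap (-1.70 ± 0.20, adjusted p = 0.0109), the myosin-binding protein Mybpc3 (-1.22 ± 0.21, adjusted p = 0.0136), the filament protein Nexn (-0.85 ± 0.15, adjusted p = 0.0136), and Smyd1. The mitochondrial coactivator Ppargc1a, which MEF2 and p38 are both known to act on, also fell (-1.87). The higher genes were Myoz1 (1.82), Xirp2 (1.36), Klf6 (1.27), Hspb1 (0.97) and Des (0.59). Many of these targets are cardiomyocyte genes, and of the 8 cardiomyocyte markers 5 were lower and 3 not called in the same hearts. Whether cardiomyocyte content plays a part in the calls of these targets was not tested.

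SRF targets leaned the other way. Of 31 measured, 10 were higher, 4 lower and 17 not called, with a median of 0.65, and the lower calls are no more frequent than the 16.1% over all named genes. The higher genes were the focal adhesion protein Zyx (1.14 ± 0.18, limma adjusted p = 0.0126), the matrix protein Ccn1 (1.37 ± 0.29, adjusted p = 0.0176), the actin-associated Pdlim7 (1.03 ± 0.22, adjusted p = 0.0181), Ccn2 (2.00), Egr2 (1.90), Actb (1.03), Flna (0.85), Actg1 (0.79), Vcl (0.65) and Des (0.59). The lower genes were the muscle proteins Fhl2 (-1.30), Nebl (-1.03 ± 0.19, limma adjusted p = 0.0147) and Acta1 (-1.19), and the actin-severing Dstn (-0.58). The immediate early genes Fos (1.47, adjusted p = 0.0663) and Egr1 (0.47) did not pass. Srf itself was not called by either probe.

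The counts of these lists depended on single hearts of both groups, as did the count over the whole array. That count was 6767 with all hearts, 54 without KO heart 1 and 1251 without KO heart 2. Without KO heart 1, limma called 0 of the cofactors (11 at an unadjusted p under 0.05), 0 of the GATA4, NKX2-5 and TBX5 targets (11), 0 of the MEF2 targets (23) and 0 of the SRF targets (15). The list medians were then -0.03, -0.14, -0.68 and 0.59. Without KO heart 2 the calls were 5, 3, 4 and 3 in the same order. Without KO heart 3 they were 13, 12, 20 and 11, and without control heart 2 they were 14, 13, 25 and 14. With all hearts they were 11, 11, 22 and 14. Without control heart 3 they were 7, 4, 13 and 8, without control heart 4 they were 5, 6, 13 and 7, and without control heart 1 they were 8, 5, 17 and 10. The median of the cofactors was 0.03 without control heart 3.

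**Figure D5:**
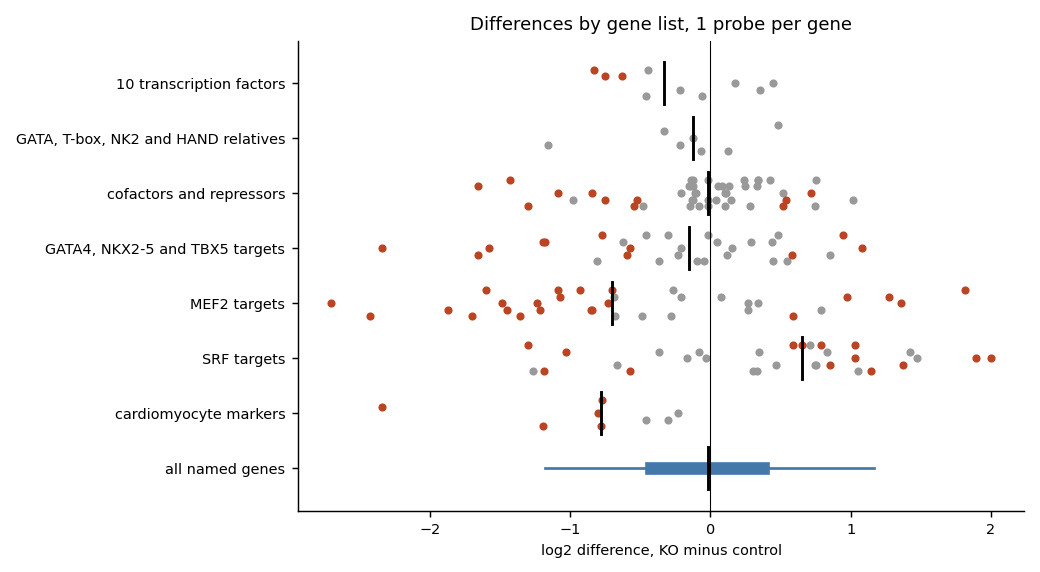
Difference KO minus control on the log2 scale (horizontal axis) of each measured gene of the 10 factors, their relatives, cofactors, target lists and the cardiomyocyte markers (rows), red where called, with the median as a bar; the last row gives all named genes, with quartiles as a box and the 5th and 95th percentiles as a line. The MEF2 targets (median -0.71) and cardiomyocyte markers (median -0.78) lie mostly below 0 and the SRF targets (median 0.65) mostly above it, while the cofactors centre near 0 (median -0.02).

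For the 5 members with the widest range over the hearts, the named genes of most similar profile were found by the root mean square distance between gene-centred log2 values over the 7 hearts. Gata6 was closest to the ribosome factor gene Sbds (distance 0.0433) and to Adgrg1 (0.0565). Mef2c was closest to Kifap3 (0.0597) and Bcas3 (0.0601), and the first Mef2a probe to Rhobtb1 (0.0730) and Gin1 (0.0812). The high-signal Tbx20 probe was closest to Smarcd3 (0.0780), the remodelling subunit described above, and then to Cyp2u1 (0.103). Tbx5, whose profile is set by control heart 4, was closest to Eepd1 (0.115) and Rapgef5 (0.142), the least near matches of the 5.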

How the data were processed

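Total RNA from the apex of 7 hearts, 100 ng per labelling, was hybridised to 1-colour Agilent arrays, per the labels' protocols. The labels name 7 separate hearts, taken as separate animals; the design text speaks of a further KO heart, which was not analysed here. Per the file headers, the authors used Agilent Feature Extraction 11.0.1.1 to read the scans. The intensity of each spot in these deposited files is a background-subtracted processed signal, and flags come with it. The authors' deposited value table holds log2 values with scale and centring not stated. Its columns correlated at 0.986 to 0.998 with median-centred scanner signals over 15000 probes, 100% of its rows had a median of 0, and higher values mean more signal; its column medians were 0 except 0.0079 in control 4 and -0.0021 in KO 2. How its scale was set stays unknown.

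Processed signals were log2-transformed and reduced by the 75th percentile of the non-control spots on that array. Control spots (3671 of 62976) and outlier-flagged spots were left out, saturated spots kept, and spots of 1 probe averaged. Probes with 3 or more arrays of a group well above background were compared with limma 3.58.1 in R 4.3.3, with Benjamini-Hochberg adjustment. Probes were named through their RefSeq accession (28026 matched 1 symbol, 27655 none). For lists, a gene was represented by its brightest kept probe, on average over the 7 arrays. Probe ratios were added after the data were seen. The scripts were tested on simulated data.

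The 10 genes and all lists were chosen with earlier results of these data known. Named were every member probe, up to 5 called genes of lowest p per list with uncalled relatives of called genes, and the 2 nearest profiles of the 5 members of widest range; the other list genes named were chosen after their values were seen. Alternatives were quantile normalization, median centring, normexp correction of the background (offset 50, on median spot signals, as mean signals were not in the files), other filters, the value table, gene means, other variance models, array weights, replicate number or slide row in the model, each heart left out, and a threshold of 0.1. The design carries build mm9, per the file headers, so promoter coordinates are those of the RefSeq table only.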

Additional observations from a re-analysis of the deposited data

Results flagged for a closer look

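In the lower-signal Srf probe, control heart 2 stood apart from the other controls. It measured 2.90 on the log2 scale, where the other controls measured 2.63 to 2.66, and its gap to the next heart was 0.884 of the controls' whole range, above Dixon's critical value at the 95% level for 4 samples. It was 1 of 16 probes checked in this way, and chance marks about 5% of groups.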

How the results depend on the processing

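With 4 arrays against 3, the standard errors of the member differences were 0.12 to 0.34 on the log2 scale, and all member signals were well above background. The array gave 6767 called probes and the members 4. These counts were 1949 and 0 with no filter on dim probes (5 members had an unadjusted p under 0.05), 67 and 0 with limma's fit but an unmoderated test (7 members unadjusted), and 0 and 0 with the replicate number as a block in limma (7847 probes and 4 members unadjusted). Replicate numbers were not taken to pair the hearts, since same-numbered hearts deviated together with correlations of 0.18, -0.22 and -0.19. Array counts were 4300 with the brightest probe of each gene, 4277 with gene means, 11821 with array weights and 10501 at an adjusted p of 0.1. With each heart left out the array count ran from 54 to 8274 and the member count from 0 to 5. The sign changed for Gata4 with median centring (0.029; -0.20 to 0.056 with a heart left out), for the NM_020496 probe of Tbx20 under the replicate block and with gene means (-0.054 and -0.21; -0.054 to 0.43 with a heart left out), for the NM_001205085 probe of Tbx20 (-0.22 to 0.013 with a heart left out), for the second Mef2a probe with gene means (-0.030) and for the higher-signal Srf probe with gene means (-0.024; -0.044 to 0.35 with a heart left out). The mean over probes mixes the opposite movements of probes of a gene; the cause of the other changes was not tested. Of the other values for the member probes, 279 kept their sign and their side of the threshold, 25 lost a call and 11 gained one.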

Other observations

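Besides Mef2a, 12 genes of the array had probes called in opposite directions between KO and control hearts. They were Bfar, Brix1, Celf1, Fbxw7, Pcdh7, Pde4b, Ppig, Rbbp6, Sdad1, Tle4, Txnl4a and Zfp689. These genes were named after their values were seen.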
